A study of Mus musculus with 16 samples.

Results

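The Polycomb repressive complexes were followed through 9 of their genes, *Ezh1*, *Ezh2*, *Eed*, *Suz12*, *Bmi1*, *Ring1*, *Rnf2*, *Cbx2* and *Cbx7*, in DN3 and ISP8 thymocytes of *PKBα*-/- and wild-type mice. All 26 probe sets that the array annotation gave to exactly these symbols were taken, out of 45101 probe sets and 18194 genes named by a probe set with 1 symbol. DN3 cells carry neither CD4 nor CD8, and are precursors that show CD25 but not CD44, and ISP8 cells are the CD3-negative cells that have gained CD8 but not yet CD4. Both subsets were sorted from each of 8 mice, which gave 16 arrays, 4 per subset and genotype. The mice were 4 littermate pairs of a C57Bl/6 backcross, 1 *PKBα*-/- and 1 *PKBα*+/+ animal in each, and the pairs are the replicates. Pair 1 was female and 3 weeks old, pair 2 male and 3 weeks old, pair 3 male and 2 weeks old, and pair 4 female and 5 weeks old. *PKBα* was missing from every tissue of the -/- mice, thymic stroma included, and no animal received a treatment. RNA of equal numbers of sorted cells within a pair was amplified in 2 cycles, and the values are GC-RMA expression values on a linear scale. They are compared between groups for 1 probe set at a time, and the levels of different genes are not ranked against each other. Levels are summed over lists of marker and cell cycle genes, and log2 differences and correlations are set side by side between genes.

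Polycomb proteins keep genes silent through chromatin. Polycomb repressive complex 2 (PRC2) methylates lysine 27 of histone H3 through its enzyme, Ezh2 or the alternative Ezh1, held together with Eed, which binds the mark and stimulates the enzyme, and Suz12, which the complex needs to be stable. Polycomb repressive complex 1 (PRC1) ubiquitinates histone H2A through the RING finger proteins Ring1 and Rnf2, with Bmi1 as a partner of that enzyme and the chromodomain proteins Cbx2 and Cbx7 as readers of the methyl mark. Ezh2 is the form typical of dividing cells and Ezh1 that of resting cells, and in the thymus the complexes are known for holding lineage-foreign and cell cycle inhibitor genes silent in precursors.

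The labels were checked first. The main *Akt1* probe set (1416657_at), which reads the transcript of PKBα itself, gave 1198 to 2007 in wild-type DN3 cells and 1628 to 2211 in wild-type ISP8 cells, against 2.01 to 27.3 and 4.87 to 6.81 in the *PKBα*-/- cells. Of the 12 DN3-stage genes measured, 10 were lower in ISP8 cells in each genotype, and of 7 ISP8 and double positive stage genes 4 were higher and 1 (*Cd53*) lower in wild-type cells. *Il2ra* (CD25) and *Cd8a* belong to the sort itself, with log2 differences of -5.56 and 4.63 in wild-type mice. Array medians were 58.5 to 70.5 for DN3 and 55.1 to 60.4 for ISP8 arrays, so that ISP8 arrays tended to lie lower. Values above 20 were held by 69.5% to 72.8% of an array's probe sets. The array numbers of the labels keep the subsets apart, 1 block of numbers for each, so array order and subset cannot be told apart. Summed levels of marker lists of other cells also differed between the subsets, though such a sum follows its brightest genes. The summed level of 3 γδ T cell markers was 964 to 4881 on DN3 arrays and 282 to 698 on ISP8 arrays, that of 5 B cell markers 1145 to 1375 and 291 to 587, that of 5 markers of mature single positive T cells 9307 to 11478 and 5239 to 8673, and that of 8 markers of epithelium and stroma 464 to 1075 and 183 to 370, with *Psmb11* at or below 20 on all DN3 arrays. The summed levels of markers of dendritic cells and macrophages, of NK and innate lymphoid cells and of erythroid cells overlapped between the subsets. Single genes did not all follow the sums. In wild-type mice 3 of 4 tested B cell genes, 4 of 5 of mature T cells and 4 of 7 of epithelium and stroma had a positive log2 difference, ISP8 minus DN3. In *PKBα*-/- mice 1 of 4, 2 of 5 and 3 of 4 did. In wild-type mice all 3 γδ T cell genes tested were lower in ISP8 cells, as was 1 of 7 of epithelium and stroma, and 1 was higher and 1 lower of 4 B cell genes and of 5 genes of mature T cells. Of 8 dendritic cell and macrophage genes 2 were higher and 3 lower, and of 5 NK and innate lymphoid genes 2 were higher and 1 lower. None of the 2 erythroid genes tested passed, and over all probe sets 28.9% passed. The part of these cells in the differences between the subsets was not tested. In sorted populations, fewer cells of a kind and less RNA per cell cannot be told apart.

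Sequences in front of 3 of the genes are shown because these genes carry the main difference between the subsets: *Ezh2* and *Suz12* were higher in ISP8 cells and *Ezh1* was lower. They are RefSeq promoter windows of GRCm38.p6, written 5′ to 3′ on the strand of the gene. Of the 9 genes 8 had a window of 250 bases before and 50 bases after the annotated start, and *Cbx2* had none. Capitals mark matches to an E2F-type motif (TTTCCCGC, TTTGGCGC, TTTCGCGC or TTTGCCGC) and to the CCAAT box in *Ezh2* and *Suz12*, and to the E box CAGGTG in *Ezh1*, on either strand. No match overlapped another, and the motifs were chosen after the windows had been read.
Ezh2, chr6:47595011-47595130, minus strand: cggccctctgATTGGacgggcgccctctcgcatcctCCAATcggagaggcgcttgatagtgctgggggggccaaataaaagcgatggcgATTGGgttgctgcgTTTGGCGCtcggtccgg
Suz12, chr11:79992876-79993075, plus strand: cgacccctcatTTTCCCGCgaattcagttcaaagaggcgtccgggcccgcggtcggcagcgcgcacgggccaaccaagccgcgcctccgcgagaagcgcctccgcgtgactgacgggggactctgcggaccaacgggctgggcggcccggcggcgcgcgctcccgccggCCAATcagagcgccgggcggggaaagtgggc
Ezh1, chr11:101226464-101226563, minus strand: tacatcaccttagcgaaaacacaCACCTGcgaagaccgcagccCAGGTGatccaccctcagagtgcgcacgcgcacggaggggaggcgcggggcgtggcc
The E2F-type motif stood 4 bases after the start of *Ezh2* and 219 bases before that of *Suz12*, and in no other of the 8 windows. It was held by 2.26% of all 32851 promoter windows. CCAAT boxes began 90, 64 and 11 bases before the start of *Ezh2* and 61 bases before that of *Suz12*, and the windows of *Eed* and *Cbx7* held 1 each. CCAAT was found in 37.4% of all windows. The E boxes of *Ezh1* began 77 and 57 bases before its start, and 20.2% of all windows held that motif. A match describes letters and not a bound site, and its absence says only that these letters are not in the window.

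The step from DN3 to ISP8 was the comparison in which probe sets of these genes passed. Of the 22 probe sets that passed the filter on low values in wild-type cells, 7 were higher and 2 lower in ISP8 cells, 40.9% of those tested, while over all 34506 probe sets tested 28.9% passed, 11.6% higher and 17.3% lower. In *PKBα*-/- cells 7 of 23 were higher and 1 lower, 34.8%, against 28.1% of 34038, 11.9% higher and 16.2% lower. Several of these probe sets belong to the same gene, and with so few genes nothing particular to the list is read from the shares. Tests were run where a value above 20 was reached in 1 or both subsets of at least 3 of 4 mice, and a probe set passed at an adjusted p under 0.05 by limma with the mouse as a block (Benjamini-Hochberg over all probe sets). With the probe set of the highest mean standing for each gene, *Ezh2*, *Eed*, *Suz12* and *Cbx2* rose and *Ezh1* fell in both genotypes, *Bmi1* rose in wild-type mice and did not pass in *PKBα*-/- mice, and *Ring1*, *Rnf2* and *Cbx7* did not pass in either. The median log2 difference of the 9 genes was 0.49 in wild-type and 0.35 in *PKBα*-/- mice, beside -0.09 and -0.05 for all probe sets. Quantile normalization of the arrays moved the median of all probe sets to 0.03 in both genotypes, and of these genes only *Bmi1* lost its call by it.

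**Figure D1:**
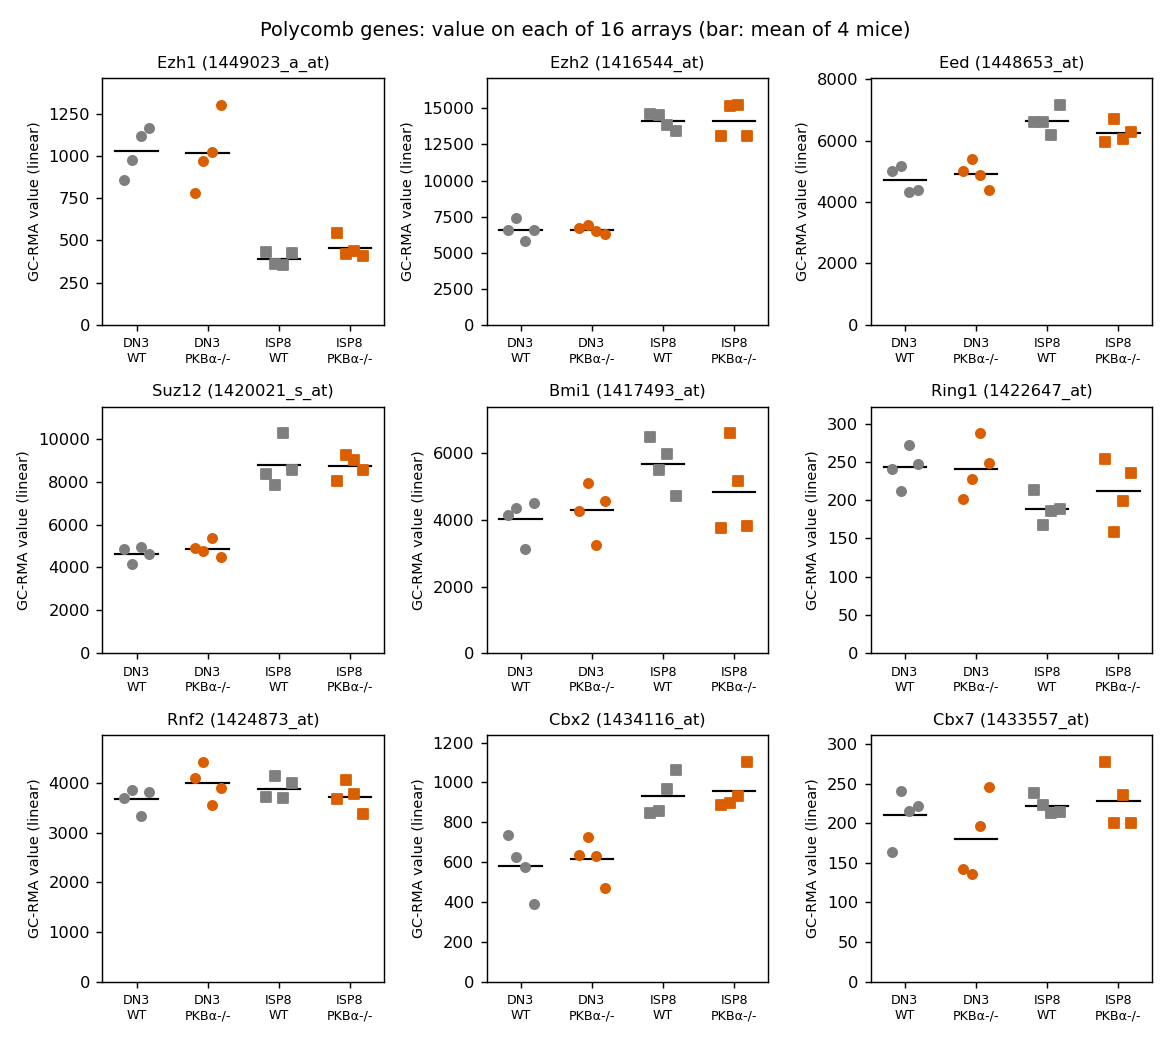
GC-RMA value (linear scale, from 0) of the highest-mean probe set of each gene on each of the 16 arrays, in 4 groups of 4 mice (circles DN3, squares ISP8, grey wild-type, orange *PKBα*-/-, bar the mean, pairs 1 to 4 from left to right in each group). DN3 and ISP8 arrays stand apart for *Ezh1*, *Ezh2*, *Eed*, *Suz12* and *Cbx2*, while the genotypes overlap in every panel.

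*Ezh2*, the main methyltransferase of PRC2, showed the clearest difference between the subsets. In pairs 1 to 4 its values in DN3 cells were 6569, 7417, 5795 and 6574 in the wild-type mice and 6697, 6940.3, 6472 and 6261 in the *PKBα*-/- mice. In ISP8 cells they were 14623, 14574, 13822 and 13400 and 13055, 15169, 15245 and 13061. The lowest ISP8 array, at 13055, lay far above the highest DN3 array, at 7417. *Ezh2* rose 2.15-fold in wild-type mice (log2 difference 1.10, SE 0.0798, adjusted p 3.2e-07) and 2.14-fold in *PKBα*-/- mice (1.10, SE 0.0685, adjusted p 3.9e-08). The 95% interval was 0.93 to 1.27 in wild-type and 0.95 to 1.24 in *PKBα*-/- mice, the narrowest of the 9 genes in each.

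*Ezh1*, the other methyltransferase, moved the opposite way. Its values in DN3 cells were 859.9, 980.2, 1119 and 1168 in wild-type and 784, 969, 1025 and 1305 in *PKBα*-/- mice, pairs 1 to 4. In ISP8 cells they were 431, 359, 356 and 425 and 546, 420.5, 438 and 407. No ISP8 array reached the lowest DN3 array, which was 784. *Ezh1* fell by 1.39 on the log2 scale in wild-type mice, to 0.382 of the DN3 level (SE 0.158, adjusted p 1.9e-05), and by 1.16 in *PKBα*-/- mice, to 0.448 (SE 0.171, adjusted p 1.4e-04). A dimmer *Ezh1* probe set (1418290_a_at) also fell in wild-type mice, from 214 ± 61.9 to 93.8 ± 12.0 (log2 -1.16, adjusted p 0.00348), and in *PKBα*-/- mice went from 207 ± 84.4 to 123 ± 27.1 with an adjusted p of 0.0834, which did not pass. The remaining *Ezh1* probe sets, 1429629_at and 1429630_at, read at most 57.7 on any array and passed nowhere.

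Within each of the 8 mice the log2 difference of *Ezh2* exceeded that of *Ezh1*, by 1.48 to 2.91 with a median of 2.44. As a description, the change in the relation of the 2 transcripts from DN3 to ISP8 was 2.80-fold to 7.50-fold toward *Ezh2*. The smallest value came from the *PKBα*-/- mouse of pair 1, whose *Ezh1* value in ISP8 cells was the highest of that subset, 546.

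*Suz12* and *Eed*, the partners that both enzymes share, also rose. The *Suz12* probe set 1420021_s_at gave 4857, 4148, 4965 and 4628 in wild-type and 4901, 4748, 5369 and 4501 in *PKBα*-/- DN3 cells. In ISP8 cells it gave 8379.5, 7855, 10255 and 8540.0 and 8050.1, 9258, 9011 and 8539. The subsets did not overlap, and *Suz12* rose 1.88-fold in wild-type (log2 0.91, SE 0.0843, adjusted p 3.3e-06) and 1.79-fold in *PKBα*-/- mice (0.84, SE 0.0750, adjusted p 1.3e-06). Its probe sets 1427253_s_at and 1452364_at rose too, with log2 differences of 0.92 and 1.11 in wild-type and 0.85 and 1.01 in *PKBα*-/- mice. The 3 dim probe sets did not go with them throughout. 1420020_at passed in *PKBα*-/- mice (log2 1.66, adjusted p 0.00975), where 1 DN3 array read 17.6 against 72.5 to 73.2 on the others, but not in wild-type mice (0.76, adjusted p 0.126). 1420022_s_at and 1449661_at passed in neither genotype, with log2 differences from -0.25 to 0.37.

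*Eed* had the smallest change among the highest-mean probe sets of PRC2. Its main probe set (1448653_at) read 5004, 5181, 4332 and 4374 in wild-type and 4996, 5396, 4893 and 4379 in *PKBα*-/- DN3 cells. In ISP8 cells it read 6612, 6607, 6175 and 7161 and 5967, 6702, 6053 and 6278. The highest DN3 array stood at 5396 and the lowest ISP8 array at 5967. *Eed* rose 1.41-fold (log2 0.49, SE 0.0908, adjusted p 9.8e-04) and 1.27-fold (0.35, SE 0.0770, adjusted p 0.00327) in wild-type and *PKBα*-/- mice. The dim *Eed* probe set 1453830_at, between 23.8 and 76.1, had differences of -0.84 and -0.39 that did not pass, and averaged with it on the log2 scale the gene no longer passed in either genotype (-0.17 and -0.022). Between the highest-mean probe sets, *Ezh2* gained more than *Suz12* in all 8 mice, by 0.05 to 0.49 on the log2 scale, but against the other bright *Suz12* probe sets it gained more in 7 (1427253_s_at) and 4 (1452364_at) of 8 mice, so that the order of *Ezh2* and *Suz12* depends on the probe set. *Suz12* gained more than *Eed* in 8 of 8 mice with each of these 3 probe sets, by 0.17 to 0.65 with the highest-mean one, and in 1 to 7 of 8 with the 3 dim ones.

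**Figure D2:**
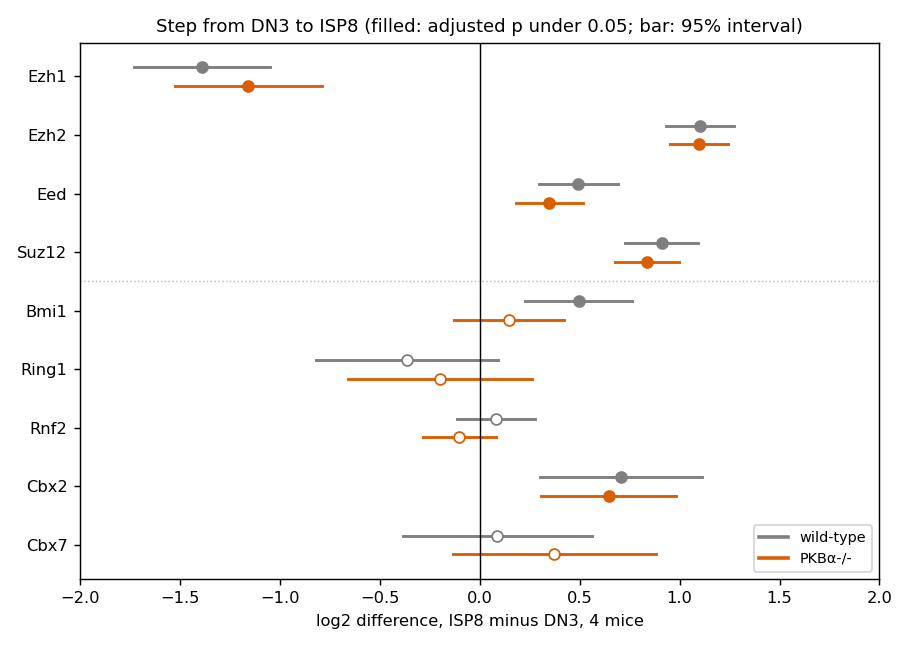
Log2 difference of ISP8 minus DN3 cells for the highest-mean probe set of each gene, in 4 wild-type (grey) and 4 *PKBα*-/- mice (orange), with 95% intervals; filled points passed at an adjusted p under 0.05, and the dotted line divides PRC2 from PRC1 genes. *Ezh1* lies left of 0 at -1.39 and -1.16, *Ezh2* right of it at 1.10 in both genotypes, and the intervals of *Ring1*, *Rnf2* and *Cbx7* span 0.

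Among the PRC1 genes, *Cbx2*, a reader of the methyl mark, rose in both genotypes. Its main probe set (1434116_at) read 739, 626, 576 and 391 in wild-type and 637, 726, 632 and 469 in *PKBα*-/- DN3 cells. In ISP8 cells it read 846, 855, 967 and 1060.5 and 889, 896, 932 and 1104. The subsets did not overlap, with 739 as the highest DN3 and 846 as the lowest ISP8 value, and in DN3 cells the 5-week-old pair 4 was the lowest of both genotypes. *Cbx2* rose 1.63-fold in wild-type (log2 0.71, SE 0.188, adjusted p 0.0114) and 1.56-fold in *PKBα*-/- mice (0.64, SE 0.157, adjusted p 0.00629). Without pair 4 the wild-type difference was 0.46 with an adjusted p of 0.073. Its dim probe set 1422059_at, at most 46.1, passed in neither.

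*Bmi1*, which joins the ubiquitin ligase of PRC1, rose in wild-type mice. The probe set 1417493_at read 4149, 4369, 3138 and 4522 in wild-type DN3 cells and 6495, 5511, 5999 and 4732 in wild-type ISP8 cells. In *PKBα*-/- mice the values were 4259.7, 5108, 3262 and 4569.7 in DN3 and 3759.9, 6607, 5163 and 3812 in ISP8 cells. The subsets were apart in wild-type mice, though by a narrow gap (4522 and 4732), and overlapped in *PKBα*-/- mice, where pairs 1 and 4 were lower in ISP8 cells and pairs 2 and 3 higher. The log2 difference was 0.50 in wild-type (SE 0.124, adjusted p 0.00802) and 0.15 in *PKBα*-/- mice (SE 0.128, adjusted p 0.447). The difference between these steps was itself tested and did not pass (-0.35, 95% interval -0.78 to 0.09, adjusted p 0.970). The wild-type call was lost without pair 1 (0.45, adjusted p 0.052), without pair 3 (0.35, adjusted p 0.061) and after quantile normalization (0.35, adjusted p 0.051). The other *Bmi1* probe set, 1448733_at, had differences of -0.15 and -0.35, neither of which passed.

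The ubiquitin ligases themselves did not pass. *Rnf2* (1424873_at) lay between 3343 and 3849 in wild-type DN3 and between 3702 and 4135 in wild-type ISP8 cells, with overlapping values and a log2 difference of 0.08 (95% interval -0.12 to 0.28). In *PKBα*-/- mice it was -0.10 (-0.28 to 0.08). A second *Rnf2* probe set, 1451519_at, gave 0.20 and 0.19, higher in ISP8 cells in 4 of 4 mice of each genotype but not past the threshold, and the remaining 3 *Rnf2* probe sets were below the filter in every comparison. *Ring1* lay between 211 and 273 in wild-type DN3 and between 168 and 213 in wild-type ISP8 cells. Its difference was -0.36 (-0.82 to 0.09) in wild-type mice and -0.20 (-0.66 to 0.26) in *PKBα*-/- mice. *Cbx7*, the other reader of the methyl mark, gave 0.09 (-0.39 to 0.56) and 0.37 (-0.13 to 0.88) with its main probe set (1433557_at), which read 164 to 241 in wild-type DN3 and 212 to 238 in wild-type ISP8 cells. The dim *Cbx7* probe set 1420039_s_at was higher in ISP8 cells in 4 of 4 wild-type mice but did not pass (log2 1.796, adjusted p 0.0826). In *PKBα*-/- mice its difference was -0.0736. The third *Cbx7* probe set, 1449713_at, gave 0.179 in wild-type and -0.483 in *PKBα*-/- mice and passed in neither. The *Cbx7* probe sets thus differed in the size and sign of the step. Between the highest-mean probe sets, *Cbx2* gained more than *Cbx7* in 5 of 8 mice.

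Groups that did not overlap were also counted. In 9 of 22 probe sets of these genes the 4 ISP8 arrays lay all above or all below the 4 DN3 arrays of wild-type mice, against 26.7% of all probe sets tested, and in *PKBα*-/- mice this held for 9 of 23, against 26.9%. The values of a member on all 16 arrays varied within a group by 4.22% to 28.4% (coefficient of variation, n = 4, highest-mean probe sets). The steps of the 2 genotypes come from different animals, the littermates of each other. The sign of the difference was the same in both for 8 of the 9 genes and differed for *Rnf2*, whose interval spanned 0 in both.

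The genes around the members were read from lists of the same pathway. Of 8 further PRC2 subunits, 3 were higher and 1 lower in wild-type ISP8 cells, and 4 were higher and 1 lower in *PKBα*-/- cells, 50% and 62.5% of them, beside 28.9% and 28.1% of all probe sets. *Phf19*, a Polycomb-like protein that helps PRC2 onto chromatin, rose by 1.16 and 1.39 on the log2 scale (adjusted p 0.00142 and 1.2e-04). *Mtf2*, a protein of the same family, fell by 0.67 and 0.46 (adjusted p 6.4e-05 and 4.4e-05). The histone-binding subunits *Rbbp4* and *Rbbp7* rose by 0.20 to 0.33 in both genotypes, but after quantile normalization *Rbbp4* passed in neither (0.08 and 0.10) and *Rbbp7* no longer in *PKBα*-/- mice (0.11). With the loss of *Aebp2* (0.17) and the gain of *Jarid2* as lower (-0.32, adjusted p 0.023), both in *PKBα*-/- mice, the quantile counts were 2 higher and 1 lower in wild-type and 1 higher and 2 lower in *PKBα*-/- cells. Of the other PRC1 subunits, 1 was higher and 4 lower of 18 tested in wild-type cells, and 1 was higher and 5 lower of 19 in *PKBα*-/- cells. These are 27.8% and 31.6% of them, near the 28.9% and 28.1% of all probe sets, and after quantile normalization 1 was higher and 2 lower in wild-type and 3 were higher and 4 lower in *PKBα*-/- cells. The polyhomeotic gene *Phc3* fell by 0.79 and 1.02, and *Mga*, the scaffold of a variant PRC1, by 0.62 and 0.71. *Yaf2*, a binding partner of the RING proteins, rose by 0.95 in wild-type mice (adjusted p 9.1e-05) and had a difference of 0.34 with an adjusted p of 0.0607 in *PKBα*-/- mice, where it passed after quantile normalization (0.41, adjusted p 0.028). *Phc1* rose by 0.64 in *PKBα*-/- mice (adjusted p 8.7e-04), where its wild-type difference was 0.26 (adjusted p 0.235). None of these subunits passed the test of the difference between the genotypes, but neither did any of the 38748 probe sets tested. That result does not show that the steps were equal.

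Of 10 genes listed as opposing Polycomb, 4 were lower in wild-type ISP8 cells and 3 in *PKBα*-/- ISP8 cells, and none was higher. After quantile normalization *Asxl2* passed as higher (0.39, adjusted p 0.049) and *Asxl1* as lower (-0.43, adjusted p 0.0025), both in wild-type cells. The quantile counts were 1 higher and 5 lower in wild-type and 0 higher and 3 lower in *PKBα*-/- cells. As deposited, the shares lower were 40.0% and 30.0%, beside 17.3% and 16.2% of all probe sets, and with so few genes nothing particular to the list is read from them. *Kmt2a* and *Kmt2d*, methyltransferases for lysine 4 of histone H3, fell by 1.11 and 0.66 in wild-type and by 0.81 and 0.54 in *PKBα*-/- mice. *Kdm6b*, a demethylase that removes the PRC2 mark, fell by 0.66 and 0.59. *Mysm1*, which removes ubiquitin from histone H2A, fell by 0.87 in wild-type mice and had a difference of -0.25 in *PKBα*-/- mice (adjusted p 0.332). The other PRC2-mark demethylase in the list, *Kdm6a*, gave -0.30 and -0.02 and did not pass.

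Of 21 genes known as Polycomb targets in other cells, 16 were tested in wild-type cells, of which 1 was higher and 4 lower in ISP8 cells, and 18 in *PKBα*-/- cells, again with 1 higher and 4 lower. The shares that passed, 31.3% and 27.8%, are near the 28.9% and 28.1% of all probe sets, so the counts are no result about the targets as a list, and after quantile normalization they were 2 higher and 4 lower in wild-type and 1 higher and 3 lower in *PKBα*-/- cells. *Cdkn1a*, a cell cycle inhibitor, fell from 2025 ± 469.6 to 179 ± 83.5 in wild-type and from 1444 ± 461 to 40.6 ± 37.6 in *PKBα*-/- mice (mean of 4). *Hoxa9*, *Hoxa7* and *Hoxb4*, homeobox genes of early progenitors, fell by 2.86, 1.97 and 2.25 on the log2 scale in wild-type and by 3.47, 1.47 and 3.28 in *PKBα*-/- mice. After quantile normalization *Hoxa7* no longer passed in *PKBα*-/- mice (-1.34, adjusted p 0.068). Many targets were near the floor, as only 6 to 9 of the 21 were above 20 on all 4 arrays of a group. *Cdkn2a*, the best known Polycomb target, had group means of 16.8 to 29.8 and differences of -0.52 and -0.44 that did not pass. The medians over the tested targets were 0.12 and 0.08, against -0.09 and -0.05 for all probe sets.

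**Figure D3:**
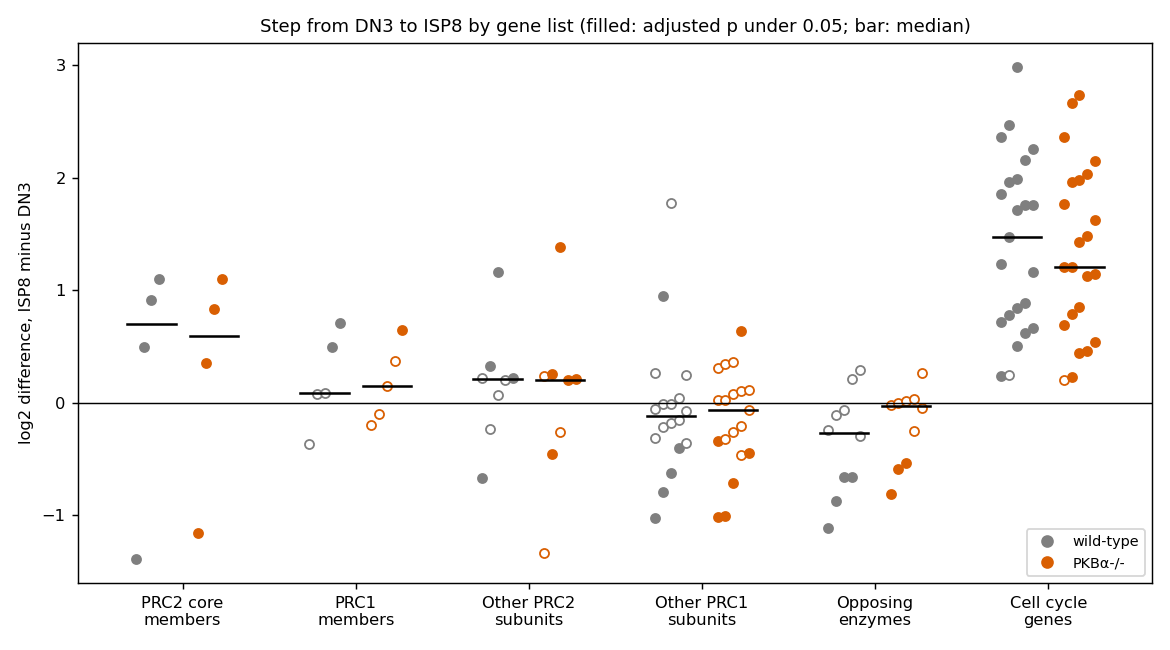
Log2 difference of ISP8 minus DN3 cells for each tested gene of 6 lists in wild-type (grey) and *PKBα*-/- mice (orange), 4 mice each; filled points passed at an adjusted p under 0.05 and bars are list medians. Cell cycle genes lie between 0.20 and 2.98 with medians of 1.48 and 1.21, and *Ezh1* is the lowest point of the PRC2 members, at -1.39 and -1.16.

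Cell cycle genes were also higher in ISP8 cells. Of 23 measured, 22 passed as higher in each genotype (21 in wild-type mice after quantile normalization), 95.7% beside 11.6% and 11.9% of all probe sets, and their summed level was 104123 to 141633 on the DN3 and 239342 to 255877 on the ISP8 arrays, with no overlap. *Ccne1* (cyclin E1) rose 7.91-fold, *Cdk1* 4.76-fold, *Top2a* 3.39-fold and *Rrm2* 3.28-fold in wild-type mice. The part of cell division in the values of the Polycomb genes was not tested. Over the 16 arrays, which share subset, pair and array order, Pearson's r of log2 values was -0.96 between *Ezh1* and *Ezh2*, 0.95 between *Ezh2* and *Suz12* and 0.93 between *Ezh2* and *Eed*. Within the 8 arrays of a subset these values were -0.43, -0.54 and 0.78 in DN3 and -0.27, 0.20 and 0.11 in ISP8 cells and so were lower in size within each subset than over all arrays.

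For each gene, the other gene most like it was sought among 13758 genes by Pearson's r of log2 values over the 16 arrays. *Ezh2* was most like *Nfatc3* (r = 0.991, and 0.686 and 0.597 within DN3 and ISP8), *Ezh1* most like *Slc12a7* (0.980, 0.885 and 0.675) and *Suz12* most like *Psmc1* (0.983, 0.795 and 0.867). *Eed* was most like *Tex30* (0.976, 0.930 and 0.810) and *Cbx2* most like *Hrob* (0.956, 0.912 and 0.517). Over the 16 arrays the values were lower for *Ring1* with *Vamp2* (0.928, 0.902 and 0.915) and *Bmi1* with *Arhgdib* (0.846, 0.867 and 0.730). They were also lower for *Cbx7* with *Plxnb1* (0.826, 0.877 and 0.383) and *Rnf2* with *Gnai3* (0.792, 0.823 and 0.760). Within each subset, however, *Ring1*, *Bmi1* and *Rnf2* had higher values with these genes than *Ezh2* had with *Nfatc3*.

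The loss of PKBα was then compared within the littermate pairs of each subset. In DN3 cells none of the 23 tested probe sets of these genes passed, and none had an unadjusted p under 0.05 by limma, where 13 of 33962 probe sets passed in all (0.0383%) and 4.83% had an unadjusted p under 0.05. The unadjusted paired test of the methods gave a p up to 0.05 for 2 of the 23 in DN3 cells. They were the dim *Ezh1* probe set 1429630_at (log2 2.12, adjusted p 0.979) and *Rnf2* 1424873_at (0.12, adjusted p 0.979). Only the *Ezh1* probe set also met the methods' rule of at least 1.5-fold in 3 or more of 4 pairs, as did 1.35% of all probe sets. The methods' detection filter was not applied here, and the authors list no *Ezh1* among their altered genes. In ISP8 cells none of 22 passed and none had an unadjusted p under 0.05, where 5 of 34016 passed (0.0147%) and 6.08% had an unadjusted p under 0.05. The smallest adjusted p of a member was 0.972 in DN3 and 0.820 in ISP8 cells. The differences of the highest-mean probe sets ran from -0.26 (*Cbx7*) to 0.12 (*Rnf2*) in DN3 cells, with a median of 0.06 beside -0.01 for all probe sets, and from -0.26 (*Bmi1*) to 0.20 (*Ezh1*) in ISP8 cells, with a median of 0.00 beside 0.02.

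How far a difference could hide under these spreads is given by the intervals. For *Ezh2* the 95% interval of *PKBα*-/- minus wild-type ran from -0.15 to 0.16 in DN3 cells and from -0.14 to 0.14 in ISP8 cells on the log2 scale. For *Suz12* it was -0.09 to 0.23 and -0.17 to 0.16, and for *Eed* -0.10 to 0.22 and -0.24 to 0.07. It was wider for *Ezh1* (-0.27 to 0.21 and -0.12 to 0.53) and widest for *Cbx7* in DN3 cells (-0.71 to 0.20) and *Ring1* in ISP8 cells (-0.28 to 0.58). *Ezh1* was higher without PKBα in 3 of 4 pairs of ISP8 cells and lower in 3 of 4 pairs of DN3 cells, with overlapping groups in both. *Bmi1* was higher without PKBα in 4 of 4 pairs of DN3 cells (0.08, adjusted p 0.985) and lower in 3 of 4 pairs of ISP8 cells (-0.26, unadjusted p 0.056, adjusted p 0.820). In pair 2 it ran the other way in ISP8 cells, at 6607 against 5511. *Rnf2* was also higher in 4 of 4 pairs of DN3 cells (0.12, adjusted p 0.972) with overlapping values.

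**Figure D4:**
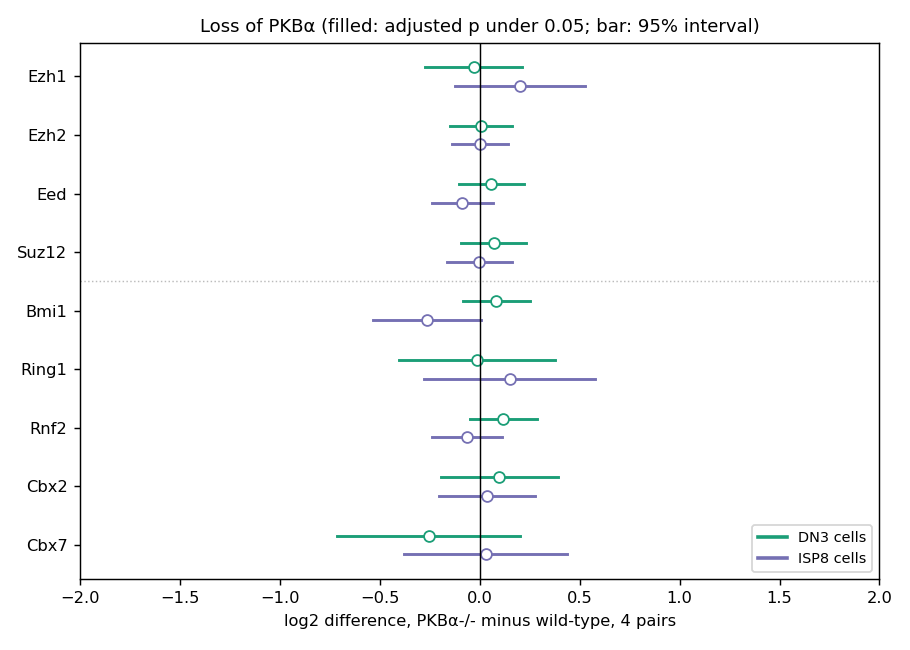
Log2 difference of *PKBα*-/- minus wild-type littermates for the highest-mean probe set of each gene in DN3 (green) and ISP8 cells (violet), 4 pairs each, with 95% intervals, on the same axis as the plot of the step from DN3 to ISP8. All points are open, as none passed, and every interval spans 0.

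In DN3 cells the genotypes did not overlap for 1 of 23 probe sets, against 1.74% of all tested, and in ISP8 cells for 0 of 22, against 2.91%. The 1 was the dim *Ezh1* probe set 1429630_at, with 3.66 to 14.5 in wild-type and 20.7 to 50.1 in *PKBα*-/- DN3 cells, close to the filter value of 20 (log2 2.12, adjusted p 0.972), while the main *Ezh1* probe set differed by -0.03. None of the further PRC2 and PRC1 subunits, the genes listed as opposing Polycomb and the target genes passed in either subset. Of 23 cell cycle genes, 21 had a positive difference in *PKBα*-/- DN3 cells, none of which passed, with a median of 0.10. By their unadjusted rule, the authors list *Cdkn1a*, among the targets here, as lower in *PKBα*-/- DN3 cells. They list *Rrm2*, among the cell cycle genes, as higher there.

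The effect of PKBα loss was compared between the subsets in 1 fit of the 16 arrays, blocked by animal. No probe set passed (0% of 38748, smallest adjusted p 0.970, 4.68% with an unadjusted p under 0.05), and among the 23 tested probe sets of the Polycomb genes 1 had an unadjusted p under 0.05, the dim *Cbx7* probe set 1420039_s_at (-1.87, p 0.048, adjusted p 0.970). For the 9 highest-mean probe sets the difference ran from -0.35 (*Bmi1*) to 0.29 (*Cbx7*), and the interval of *Ezh2* was -0.23 to 0.21. This is also the difference of the step from DN3 to ISP8 between the genotypes, and for *Ezh1* it was 0.23 (-0.27 to 0.74).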

How the data were processed

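Transcripts of DN3 and ISP8 thymocytes from 4 *PKBα*-/- and wild-type littermate pairs were measured on 16 Affymetrix arrays. The authors sorted the cells, amplified the RNA in 2 cycles and turned the array intensities into GC-RMA expression values with Refiner 3.1 before deposition. That method subtracts background by probe sequence. The deposited arrays were not fully equalized, with medians from 55.1 to 70.5. The deposited intensity values are linear and were log2-transformed here with no constant added. They hold no counts, so that the number of arrays limits the precision. Genes were named from the platform annotation, in which 34958 probe sets have 1 symbol, 932 several and 9211 none. Probe sets with several symbols were not used for names.

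Each comparison was fitted with limma 3.58.1 under R 4.3.3 (lmFit, eBayes with an intensity trend, two-sided), with the littermate pair as a block for the genotype, the animal for the step from DN3 to ISP8 and for the difference of the genotype effect between subsets. The threshold was 0.05 after Benjamini-Hochberg adjustment over all tested probe sets, which were those with a value above 20 on at least 1 array of a block (for the difference between subsets, of the 4 arrays of a pair) in at least 3 blocks. The pairing comes from the labels, which name the littermate of each mouse and give the same animals for both subsets. After removal of the group means, values of littermates correlated at 0.08 to 0.15 for DN3 and at 0.03 to 0.06 for ISP8 arrays, across 31977 probe sets. For mice of different pairs the values were -0.083 to 0.028 and -0.056 to 0.055. The ranges were thus apart for DN3 and overlapped for ISP8 arrays, where the values do not show the pairing. Each gene was represented by its probe set with the highest mean over the 16 arrays. The genes named outside the members are up to 4 per list and comparison that passed, with the smallest p, their values in the other genotype, the gene with the highest correlation to each member, and *Akt1* as the check of the knockout. *Cdkn2a*, *Kdm6a*, *Asxl1*, *Asxl2* and *Psmb11* were named after their values were seen. The members and the lists were chosen with earlier results of these data known. The fits were tested on simulated data. The alternatives tried were quantile normalization, a filter at 100 or none, 20 added to each value, no replicate block, no intensity trend, the methods' paired test with an added Benjamini-Hochberg adjustment, 1 fit of all 16 arrays, leaving out each pair, and the mean over all probe sets of a gene. Quantile normalization of the list counts was added after the data were seen. Promoter windows are RefSeq sequences of GRCm38.p6. Python 3.11.15 with matplotlib 3.10.9 drew the figures.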

Additional observations from a re-analysis of the deposited data

Results flagged for a closer look

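In 2 of 84 groups of 4 arrays, 1 array stood apart from the other 3, where chance gives about 1 in 20 groups. The dim *Suz12* probe set 1420020_at read 17.6 in the *PKBα*-/- DN3 cells of pair 2 and 72.5 to 73.2 in the other 3 mice of that group. The dim *Eed* probe set 1453830_at read 38.9 in the wild-type ISP8 cells of pair 1 and 29.9 to 31.2 in the other 3. Both are low-level probe sets of genes whose brighter probe sets showed no such array.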

How the results depend on the processing

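No probe set of the Polycomb genes passed in a genotype comparison, or in the difference between subsets, at an adjusted p under 0.05 under any alternative. The paired test stands here with Benjamini-Hochberg adjustment, which the methods did not use. Their own rule was a paired p of at most 0.05 without adjustment and a change of 1.5-fold or more in 3 or more of 4 pairs. The authors also required a detection call in most replicates of a condition, which was not applied here, so the counts below are not theirs. Without that detection filter the rule selected 1 of 23 probe sets of these genes in DN3 and 0 of 22 in ISP8 cells, beside 1.35% and 1.53% of all tested (458 and 521). None of these genes is in the authors' lists of altered genes. In the step from DN3 to ISP8 it selected 8 of 22 in wild-type and 5 of 23 in *PKBα*-/- mice, beside 19.2% and 17.4% of all tested (6626 and 5910). In that step, the highest-mean probe sets of *Ezh2* and *Suz12* kept their direction and their call under every alternative. By the adjusted paired test 5 probe sets of these genes passed in wild-type and 4 in *PKBα*-/- mice, and without the intensity trend 5 in *PKBα*-/- mice, against 9 and 8. That paired test passed 3103 of all 34506 probe sets in wild-type and 3036 of 34038 in *PKBα*-/- mice. With 1 pair left out, 8 to 9 passed in wild-type and 8 to 9 in *PKBα*-/- mice. Called changes turned sign only with the mean over all probe sets of the gene, for *Eed* in wild-type (-0.17) and *PKBα*-/- mice (-0.022) and *Cbx2* in *PKBα*-/- mice (-0.19), which brings in dim probe sets. *Eed* and *Cbx2* lost their calls in both genotypes without the trend and by the paired test, *Bmi1* in wild-type mice too, and *Ezh1* in *PKBα*-/- mice by the paired test (adjusted p 0.092) and in wild-type mice with the mean of its probe sets (-1.01, adjusted p 0.071), by which *Bmi1* (0.17) and *Cbx2* (0.35) also lost theirs in wild-type mice. The cause was not tested. Differences that had not passed changed sign in 38 further cases, 31 of them in the genotype comparisons or the difference between subsets.

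Over all probe sets, the 13 calls of the genotype in DN3 cells became 8 without a filter, 27 with the added constant, 1 without the replicate block, 0 without the trend, 0 by the adjusted paired test and 1 in 1 fit of all arrays, and 12 to 40 with a pair left out (21 without pair 1, 40 without pair 3 and 21 without pair 4). The 5 calls in ISP8 cells became 3 without a filter, 1 with a filter at 100, 2 without the replicate block, 1 without the trend, 0 by the paired test and 3 in 1 fit, and 1 to 12 with a pair left out (1 without pair 1, 12 without pair 4). In the step from DN3 to ISP8, 9968 calls in wild-type mice became 4393 without the trend and 3103 by the paired test, and 9556 in *PKBα*-/- mice became 4207 and 3036. Quantile normalization turned 4003 higher and 5965 lower calls into 4649 and 4639 in wild-type mice, and 4058 and 5498 into 4637 and 4580 in *PKBα*-/- mice. Of the 26 probe sets, 18 were above 20 on all 16 arrays; low signal limits the other 8.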
